A study of Cocos nucifera with 22 samples.

Results

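MT3 (CN01_14G002700, COCehwD017694.1), annotated as a type 3 metallothionein-like protein, and a second metallothionein-like gene (CN01_06G004190, COCehwD020564.1) were followed in coconut leaves. Both were taken by their locus tags from the study's own list of genes that responded to salt or were highly expressed, and they are 2 of the 4 metallothionein genes of that list and 2 of 25247 genes listed in any library. They were picked by name, with earlier results of these data known. The study put both in a class with a late increase in Hainan tall, so an increase in Hainan tall at 6 or 10 days was already part of why they are on that list and is no separate evidence. The Aromatic dwarf libraries were not used for that class.

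Leaf RNA of Cocos nucifera, the coconut palm, was sequenced in 22 libraries, 11 from the variety Hainan tall and 11 from the variety Aromatic dwarf. Greenhouse seedlings were sampled before treatment (0 h) and after irrigation with diluted Murashige and Skoog medium containing 200 mM NaCl. Each variety gave 3 libraries at 0 h, 3 at 4 h, 3 at 6 days and 2 at 10 days. A second irrigation fell between the samples of 6 and 10 days. All later leaves had been given the salt medium, and no leaf without salt was sampled after 0 h, so salt, elapsed time, hour of day and nutrient solution cannot be told apart. The methods state that libraries with the same number came from the same leaf, and they are called leaf 1, 2 and 3 of a variety here. P-values treat libraries as independent and measure the spread between these few leaves.

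Metallothioneins are small cysteine-rich proteins that bind metal ions such as zinc and copper through the sulfur of their cysteines. Plants carry several types, told apart by the arrangement of the cysteines, and type 3 genes are known as abundant transcripts of leaves and of ripening fruit. They are also known for scavenging reactive oxygen species.

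In the assembly of Hainan tall, MT3 lies on chromosome 14 at 6743844-6745657, a gene span of 1814 bp with a coding length of 198 bp. CN01_06G004190 lies on chromosome 6 at 11150923-11153100, a span of 2178 bp with a coding length of 195 bp. The best rice match of both is metallothionein 3, and the study listed the 2 genes as a duplicated pair, 1 of 275 listed pairs between chromosomes 6 and 14 in the copy used here, which is shortened. The annotated neighbours end 144 bp before MT3 and 503 bp before CN01_06G004190. No gene span overlapped either gene.

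The authors' estimated counts showed that reads were shared between the 2 genes and, in these values, with no other gene. The count of MT3 was more than 0.01 reads from a whole number in 19 of 22 libraries, and at most 0.38 reads from one. The sum of both counts was whole, within 0.02 reads, in 22 of 22 libraries. The other 2 metallothionein genes of the list, both of type 2, had counts within 0.01 reads of a whole number in 22 of 22 libraries. Fractions of this size are small beside MT3 counts of 226 to 8668 and CN01_06G004190 counts of 126 to 1853, although how many reads were shared cannot be read from the fractions. The sum of both genes, tested as 1 feature after the data had been seen, rose by 2.09 in Hainan tall at 6 days against 0 h (adjusted p = 0.0219 by edgeR), and from 4 h to 6 days by 1.72 in Hainan tall (0.0435) and 2.74 in Aromatic dwarf (0.00274).

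Totals were 2977359 to 3445467 estimated counts per library, with a median of 3235470. The 5 leaf markers (Rubisco small chain, 3 chlorophyll a-b binding proteins and oxygen-evolving enhancer protein 1) were present in every library. Their summed level, most of it Rubisco small chain, was 25014 to 31394 FPKM (reads scaled by gene length and by library size) in Hainan tall at 0 h, 38240 to 39347 at 4 h, 50918 to 74025 at 6 days and 43103 to 53642 at 10 days. In Aromatic dwarf it was 28681 to 35496 at 0 h, 16965 to 22314 at 4 h, 44140 to 71858 at 6 days and 51601 to 52186 at 10 days. The sum was thus higher at 6 and 10 days than at 0 h in both varieties, and its part in the results was not tested. Over the 22 libraries the correlation of log2 levels with MT3 was 0.813 for Rubisco small chain, 0.649 for the chlorophyll a-b binding protein CN01_02G014270 and 0.654 for oxygen-evolving enhancer protein 1, but 0.155 and 0.083 for the other chlorophyll a-b binding proteins, CN01_scaffold021683G000030 and CN01_scaffold007735G000020. In bulk leaf RNA, fewer cells of a type and less RNA per cell cannot be told apart.

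MT3 was among the most abundant leaf transcripts. Ranked by FPKM within a library, it stood at 2 in its highest library, at 240 in its lowest and at a median of 26. Its level ran from 417 to 16828 FPKM, a 40.4-fold range, and in the highest library 0.283% of all counts fell on it. CN01_06G004190 ranked from 19 to 529 and ran from 235 to 3479 FPKM, a 14.8-fold range.

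In Hainan tall the MT3 level at 0 h was 417, 2006 and 974 FPKM in leaves 1, 2 and 3. At 4 h the same leaves had 778, 1311 and 2511 FPKM, and at 6 days 1961, 3649 and 7644 FPKM. At 10 days leaves 1 and 2 had 5302 and 4886 FPKM. Each leaf was higher at 6 days than at 0 h and 4 h, but the groups of 0 h and 6 days overlapped because leaf 2 started high and leaf 1 stayed low. The 10-day libraries lay above every library of 0 h and 4 h.

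In Aromatic dwarf the MT3 level at 0 h was 1643, 4832 and 2313 FPKM in leaves 1, 2 and 3. At 4 h it was 1755, 1555 and 1352 FPKM, and at 6 days 16828, 5178 and 2862 FPKM. At 10 days leaves 1 and 2 had 10260 and 10723 FPKM. The 3 libraries of 4 h were close together and below 2 of the 3 libraries of 0 h, and all 3 libraries of 6 days lay above them. Leaf 1 at 6 days stood far above the other 2, and 6 days overlapped with 0 h.

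CN01_06G004190 in Hainan tall was at 395, 621 and 235 FPKM in leaves 1, 2 and 3 at 0 h and at 330, 443 and 438 FPKM at 4 h. It was at 429, 989 and 999 FPKM at 6 days and at 1284 and 1079 FPKM in leaves 1 and 2 at 10 days. The range of 4 h lay inside the wider range of 0 h, leaf 1 at 6 days was within the range of 0 h, and only the 10-day libraries lay wholly above 0 h.

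In Aromatic dwarf CN01_06G004190 was at 366, 1056 and 405 FPKM in leaves 1, 2 and 3 at 0 h and at 603, 549 and 353 FPKM at 4 h. It was at 1467, 1247 and 599 FPKM at 6 days and at 2179 and 3479 FPKM in leaves 1 and 2 at 10 days. Leaf 2 was again the high leaf at 0 h, and the 2 libraries of 10 days lay above all other libraries of this gene in either variety.

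**Figure D1:**
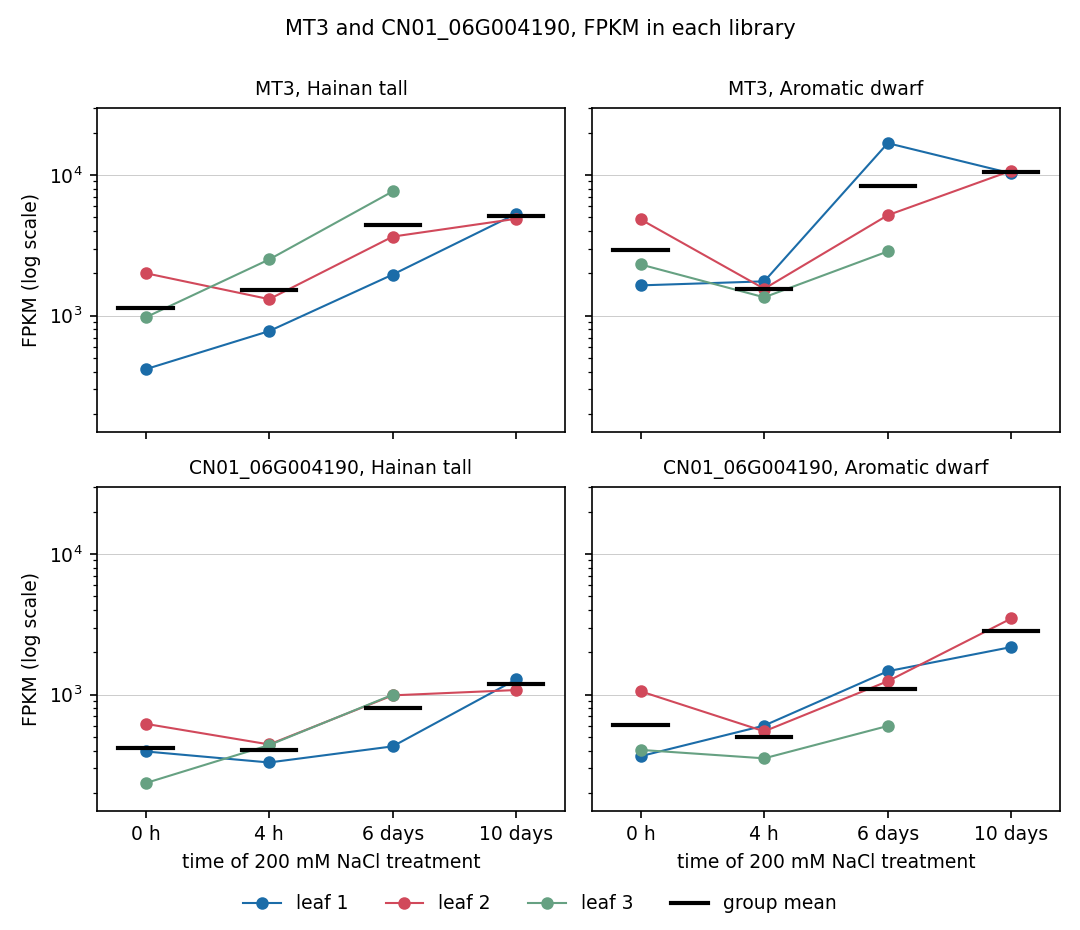
FPKM (log scale) of MT3 (top) and CN01_06G004190 (bottom) by time in Hainan tall (left) and Aromatic dwarf (right). Points are libraries, thin lines join the libraries of 1 leaf and black bars are group means. The lines run upward from 4 h to 6 days in all 3 leaves of each panel, and MT3 in leaf 1 of Aromatic dwarf peaks at 16828 FPKM at 6 days.

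By group mean, MT3 was lowest in Hainan tall at 0 h (1132 ± 806 FPKM, SD, n = 3) and highest in Aromatic dwarf at 10 days (10492 ± 327 FPKM, n = 2). Between them stood, in ascending order, Hainan tall at 4 h (1533 ± 888, n = 3), Aromatic dwarf at 4 h (1554 ± 202, n = 3) and 0 h (2929 ± 1682, n = 3), Hainan tall at 6 days (4418 ± 2919, n = 3) and 10 days (5094 ± 294, n = 2), and Aromatic dwarf at 6 days (8290 ± 7485, n = 3). All 7 neighbouring pairs in that order overlapped, so no step between neighbours exceeded the spread between libraries.

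CN01_06G004190 ran in nearly the same order, from Hainan tall at 4 h (404 ± 64.1 FPKM, n = 3) and 0 h (417 ± 194, n = 3) through Aromatic dwarf at 4 h (502 ± 132, n = 3) and 0 h (609 ± 388, n = 3). Then came Hainan tall at 6 days (806 ± 326, n = 3), Aromatic dwarf at 6 days (1104 ± 451, n = 3), Hainan tall at 10 days (1181 ± 145, n = 2) and Aromatic dwarf at 10 days (2829 ± 919, n = 2). Of its 7 neighbouring pairs 6 overlapped, and the exception was the last step, to Aromatic dwarf at 10 days. That step sets 2 libraries against 2, and how many of all genes separate there was not counted.

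Changes with time were tested with the quasi-likelihood F test of edgeR on all 18840 genes that passed a filter on low counts, with Benjamini-Hochberg adjusted p-values (adjusted p) called under 0.05. Both genes passed the filter. Over the 4 times together, both changed in Hainan tall (adjusted p = 0.0228 for MT3 and 0.0236 for CN01_06G004190) and in Aromatic dwarf (0.00631 and 0.00155). The background was wide, since 37.4% of all genes tested were called over the times in Hainan tall and 40.2% in Aromatic dwarf.

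In Aromatic dwarf both genes rose from 4 h to 6 days. MT3 rose by 3.0 on the log2 scale (SE 0.70, 95% interval 1.52 to 4.47, adjusted p = 0.00298) and CN01_06G004190 by 1.56 (SE 0.45, interval 0.61 to 2.52, adjusted p = 0.0122), in a comparison where 36.1% of all genes were called. Within leaves 1, 2 and 3 the MT3 level at 6 days was 9.59, 3.33 and 2.12 times that at 4 h, and the CN01_06G004190 level 2.43, 2.27 and 1.70 times. Both genes were therefore higher in 3 of 3 leaves, although the size for MT3 rested on leaf 1. Without the 6-day library of leaf 1 the MT3 change was 1.24 (adjusted p = 0.0639) and that of CN01_06G004190 was 1.02 (adjusted p = 0.103). The CN01_06G004190 call was also lost without the 4-h library of leaf 3 (1.40, adjusted p = 0.0643) and with limma on FPKM (adjusted p = 0.0592 and 0.0613).

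In Hainan tall the same step was called for CN01_06G004190 and narrowly missed for MT3. CN01_06G004190 rose by 1.27 (SE 0.45, interval 0.32 to 2.22, adjusted p = 0.0460), with 25.4% of all genes called, and MT3 was higher by 1.82 (SE 0.66, interval 0.43 to 3.20, adjusted p = 0.0506). MT3 at 6 days was 2.52, 2.78 and 3.04 times its level at 4 h in leaves 1, 2 and 3, an even spread, and CN01_06G004190 was 1.30, 2.23 and 2.28 times. With the leaf as a replicate block MT3 was called (1.78, adjusted p = 0.0335), as it was under 7 of the 11 alternatives in all. Of the 6 omissions of a library it was called in 1, without the 6-day library of leaf 1 (2.15, adjusted p = 0.0376). Without the 6-day library of leaf 3 the MT3 change was 1.26 (adjusted p = 0.260). The CN01_06G004190 call was lost in 3 of 11 alternatives (adjusted p = 0.0865 to 0.128) and likewise without any of 5 of the 6 libraries. The CN01_06G004190 change was 1.18 (adjusted p = 0.123), 1.42 (0.0726) and 1.21 (0.140) without the 4-h library of leaf 1, 2 or 3, and 1.01 (0.170) and 1.16 (0.134) without the 6-day library of leaf 2 or 3.

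Against 0 h, both genes rose in Hainan tall at 6 days. MT3 rose by 2.30 (SE 0.67, interval 0.89 to 3.70, adjusted p = 0.0221) and CN01_06G004190 by 1.29 (SE 0.45, interval 0.35 to 2.24, adjusted p = 0.0492), where 21.1% of all genes were called and the median over all genes was -0.022. In leaves 1, 2 and 3 MT3 was 4.71, 1.82 and 7.85 times its own level at 0 h, and CN01_06G004190 1.09, 1.59 and 4.24 times. The study classed both genes for an increase in Hainan tall at 6 or 10 days, with at least a 2-fold change. By mean FPKM, MT3 at 6 days was 3.90 times its level at 0 h. CN01_06G004190 was 1.93 times its level at 6 days, under that limit, and 2.83 times at 10 days. The MT3 call was lost without the 0-h library of leaf 1 (1.93, adjusted p = 0.0968) or leaf 3 (2.33, adjusted p = 0.0696) and without the 6-day library of leaf 3 (1.70, adjusted p = 0.144). The CN01_06G004190 call was lost in 4 of 11 alternatives (adjusted p = 0.0564 to 0.113), without the 0-h library of leaf 1 (adjusted p = 0.120) or leaf 3 (1.03, adjusted p = 0.188), and without the 6-day library of leaf 2 (1.04, adjusted p = 0.166) or leaf 3 (1.15, adjusted p = 0.160).

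In Aromatic dwarf at 6 days against 0 h neither gene was called, in a comparison that called 7.97% of all genes. MT3 was higher by 1.68 (SE 0.66, interval 0.29 to 3.07, adjusted p = 0.126) and CN01_06G004190 by 0.98 (SE 0.46, interval 0.0097 to 1.96, adjusted p = 0.204). MT3 in leaf 1 was 10.2 times its level at 0 h, while leaves 2 and 3 were at 1.07 and 1.24 times. CN01_06G004190 was at 4.01, 1.18 and 1.48 times in the same leaves. Without the 6-day library of leaf 1 the MT3 value turned to -0.44 (adjusted p = 0.754), and without that of leaf 3 it was 2.13 and called (adjusted p = 0.0324). CN01_06G004190 was called without the 0-h library of leaf 2 (1.66, adjusted p = 0.0408).

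At 10 days the libraries of both genes lay above those of 0 h in both varieties, with no overlap. How many of all genes separate in this way was not counted. With 2 libraries at 10 days, only CN01_06G004190 in Aromatic dwarf was called. It rose by 2.16 (SE 0.56, interval 0.97 to 3.34, adjusted p = 0.0274), where 8% of all genes were called, and was 5.96 and 3.29 times its level at 0 h in leaves 1 and 2. The call was lost without the 0-h library of leaf 1 (1.89, adjusted p = 0.0888) or leaf 3 (1.93, 0.0669), without the 10-day library of leaf 1 (2.45, 0.0767) or leaf 2 (1.81, 0.140), and with only Aromatic dwarf libraries in the fit (2.59, 0.0727).

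MT3 in Aromatic dwarf at 10 days was higher than at 0 h by 1.60 (SE 0.82, interval -0.12 to 3.32, adjusted p = 0.237), with leaves 1 and 2 at 6.24 and 2.22 times. In Hainan tall, where 8.08% of all genes were called, MT3 was higher by 2.16 (SE 0.74, adjusted p = 0.0793) and CN01_06G004190 by 1.56 (SE 0.52, adjusted p = 0.0690). Leaves 1 and 2 of Hainan tall stood at 12.7 and 2.44 times for MT3 and at 3.25 and 1.74 times for CN01_06G004190. With the leaf as a replicate block the Hainan tall change of MT3 was 2.96 and called with a fixed block (adjusted p = 0.0315), and 2.39 and not called with a random one (adjusted p = 0.0551). All libraries of 10 days were read on flow cell AW and all Aromatic dwarf libraries of 0 h on flow cell AV, so those 2 groups are compared only through the flow cell term of the fit. That term was 0.54 for MT3 (SE 0.42) and 0.35 for CN01_06G004190 (SE 0.29), AW minus AV, and called 0.0318% of all genes, neither of the 2 among them. Without it the 10-day changes of MT3 were 2.14 in Aromatic dwarf (adjusted p = 0.0448) and 2.41 in Hainan tall (0.0332). With only Aromatic dwarf libraries fitted, the MT3 change at 10 days was 3.24 (adjusted p = 0.0595).

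At 4 h neither gene was called in either variety. In Hainan tall, where 20.6% of all genes were called, MT3 differed from 0 h by 0.48 (interval -0.87 to 1.83, adjusted p = 0.646) and CN01_06G004190 by 0.021 (interval -0.92 to 0.97, adjusted p = 0.982). In Aromatic dwarf, where 13% were called, the values were -1.32 (interval -2.79 to 0.16, adjusted p = 0.236) and -0.58 (interval -1.61 to 0.46, adjusted p = 0.484). The size for MT3 there depended on the fit. It was -0.95 without the flow cell term and -0.094 with only Aromatic dwarf libraries fitted. MT3 was higher at 4 h in 2 of 3 leaves of Hainan tall and in 1 of 3 of Aromatic dwarf. The MT3 intervals leave room for more than a 2-fold increase in Hainan tall and more than a 2-fold decrease in Aromatic dwarf. For CN01_06G004190 the small Hainan tall value has no fixed sign, since it was -0.024 without the flow cell term.

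**Figure D2:**
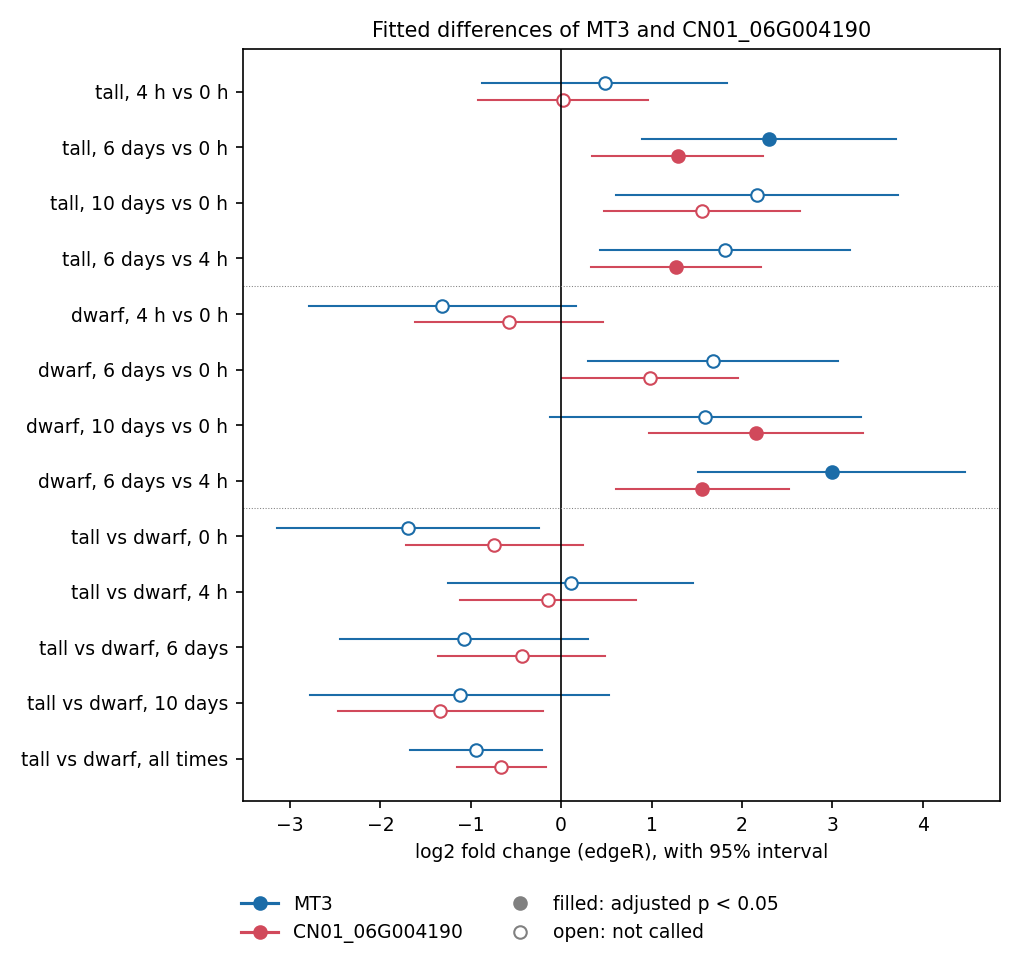
Fitted log2 fold changes (points) with 95% intervals (lines) of MT3 (blue) and CN01_06G004190 (red) for the changes with time in each variety and for the difference between varieties, tall over dwarf. Filled points passed an adjusted p of 0.05, which none of the variety differences did, and the largest filled value is the 3.0 of MT3 in Aromatic dwarf from 4 h to 6 days.

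The varieties were compared at each time. MT3 was lower in Hainan tall than in Aromatic dwarf by 1.69 at 0 h on the log2 scale (interval of tall minus dwarf -3.14 to -0.24, adjusted p = 0.224), where only 0.409% of all genes were called. At 4 h the difference was 0.10 (interval -1.25 to 1.46, adjusted p = 0.963, 1.06% called), and mean levels were close, at 1533 and 1554 FPKM. At 6 days it was -1.07 (interval -2.45 to 0.30, adjusted p = 0.721, 0.0265% called). That value turned to 0.78 without the 6-day library of leaf 1 of Aromatic dwarf, the single highest MT3 library, and to 0.24 from -0.44 for CN01_06G004190.

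At 10 days the 2 Aromatic dwarf libraries lay above both Hainan tall libraries for each gene, 10260 and 10723 FPKM against 5302 and 4886 FPKM for MT3, and 2179 and 3479 against 1284 and 1079 for CN01_06G004190. How many of all genes separate in this way was not counted, and the 2 genes share reads, so they are not independent. The differences, tall minus dwarf, were -1.12 (interval -2.78 to 0.53, adjusted p = 0.582) and -1.34 (interval -2.47 to -0.20, adjusted p = 0.319), where 0.0743% of all genes were called. Fitted on those 4 libraries alone, both passed (adjusted p = 0.0383 and 0.0476). CN01_06G004190 differed by -0.74 at 0 h (adjusted p = 0.429), -0.15 at 4 h (0.924) and -0.44 at 6 days (0.858).

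Averaged over the 4 times, MT3 was lower in Hainan tall by 0.95 (interval of tall minus dwarf -1.68 to -0.22, adjusted p = 0.123) and CN01_06G004190 by 0.66 (interval -1.16 to -0.17, adjusted p = 0.108). Neither was called, while 5.01% of all genes were. Without the 6-day library of leaf 3 of Aromatic dwarf both passed, at -1.10 (adjusted p = 0.0311) and -0.75 (adjusted p = 0.0350). That setting called 1499 of 18812 genes, against 943 in the main fit. For each gene it was the only 1 of 22 omissions that passed, with adjusted p up to 0.228 for MT3 and 0.244 for CN01_06G004190.

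The change from 0 h was not shown to differ between the varieties for either gene. For MT3 the difference of the changes, tall minus dwarf, was 1.80 at 4 h (interval -0.22 to 3.81, adjusted p = 0.467, 0.0584% of genes called), 0.62 at 6 days (interval -1.29 to 2.53, adjusted p = 0.855) and 0.57 at 10 days (interval -1.60 to 2.73, adjusted p = 0.931). For CN01_06G004190 it was 0.60 (interval -0.83 to 2.02), 0.31 (interval -1.05 to 1.66) and -0.59 (interval -2.08 to 0.89), with adjusted p from 0.784 to 0.909. A joint test over the 3 later times gave adjusted p = 0.664 and 0.719. It called 0 of 18840 genes (2339 had an unadjusted p under 0.05), and for MT3 the intervals at 6 and 10 days reach beyond a 2-fold difference in both directions.

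Both genes varied more between leaves than most genes. The biological coefficient of variation of the fit was 53.0% for MT3 and 37.4% for CN01_06G004190, against a median of 19.3% over all genes. Within a group the highest MT3 library was up to 5.88 times the lowest, in Aromatic dwarf at 6 days, while the libraries of 10 days lay within 1.09-fold in Hainan tall and 1.05-fold in Aromatic dwarf. Leaf 1 of Hainan tall was the lowest for MT3 at 0 h, 4 h and 6 days, by 0.98 on average below the log2 mean of its group, and reached the level of leaf 2 at 10 days.

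The 2 genes moved together. Over the 22 libraries the Pearson correlation of their log2 levels was 0.904 (Spearman 0.922), with 0.883 in Hainan tall and 0.922 in Aromatic dwarf, and after taking out group means it was 0.742. These libraries share times and leaves, the genes share reads, and the value is a description without a test. Among 18839 other genes, CN01_06G004190 ranked 82 in likeness to MT3, and MT3 ranked 36 in likeness to CN01_06G004190. Of 1999 duplicated pairs in the copy used here, 27 have both genes in the study's list of genes that responded to salt or were highly expressed. Among the 26 other pairs of these 27 the correlation ran from -0.73 to 0.967 with a median of 0.790, and 8 were higher. That median therefore holds for selected pairs only.

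In every library MT3 was the higher of the pair. The ratio of its FPKM to that of CN01_06G004190 had a median of 4.15 and ran from 1.05 in leaf 1 of Hainan tall at 0 h to 11.5 in leaf 1 of Aromatic dwarf at 6 days. In Hainan tall the median ratio was 3.23 at 0 h, 2.96 at 4 h, 4.57 at 6 days and 4.33 at 10 days, and in Aromatic dwarf 4.58, 2.91, 4.78 and 3.90. The mean log2 ratio of a leaf over 0 h, 4 h and 6 days was 1.17, 1.71 and 2.50 in Hainan tall and 2.41, 1.92 and 2.24 in Aromatic dwarf. The varieties overlapped and differed by -0.39 (tall minus dwarf, exact two-sided permutation test on 3 leaves against 3, p = 0.5). The smallest p this design allows is 0.1.

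**Figure D3:**
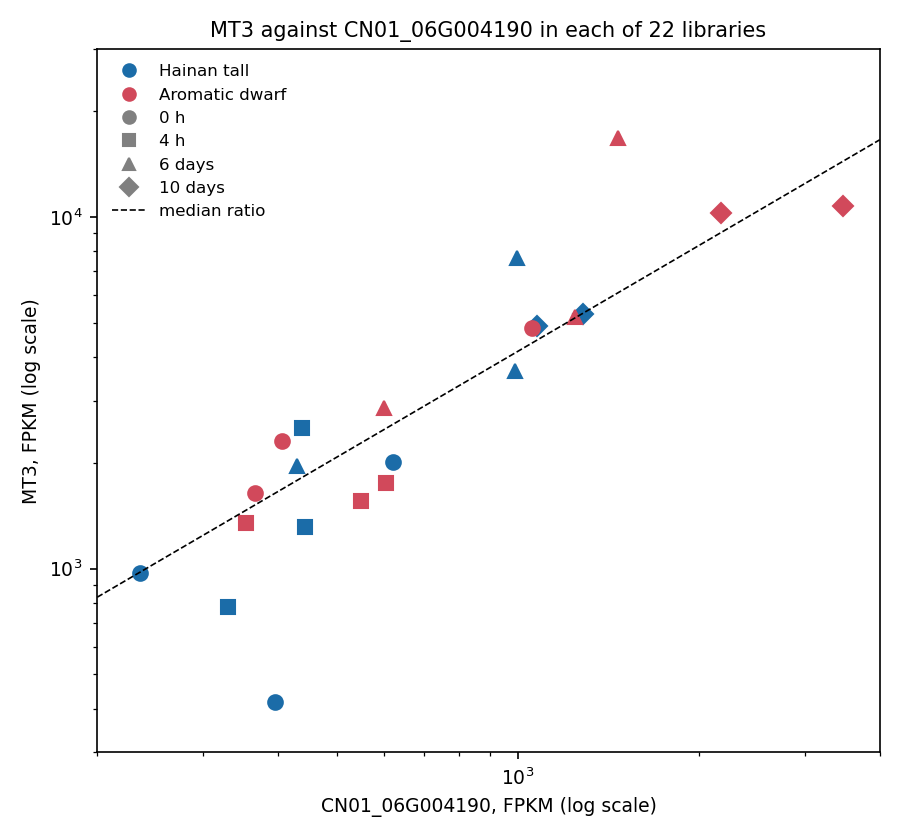
MT3 against CN01_06G004190, both in FPKM on log scales, in 22 libraries, coloured by variety with a symbol for each time. The dashed line is the median ratio of 4.15. Points follow the line over the whole range, and the 2 farthest from it are leaf 1 of Hainan tall at 0 h (1.05) and leaf 1 of Aromatic dwarf at 6 days (11.5).

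The 10 genes most like MT3 over the 22 libraries had correlations of 0.940 to 0.957, against a median of -0.061 over all genes. The study's list names 4 of them. These are a divinyl chlorophyllide a 8-vinyl-reductase of chlorophyll synthesis (CN01_04G009120, 0.956), the GTP-binding protein TypA/BipA (CN01_14G012150, 0.947), the chloroplast ABC1 kinase 8 (CN01_05G006670, 0.941) and a 1,2-dihydroxy-3-keto-5-methylthiopentene dioxygenase of methionine salvage (CN01_scaffold008171G000010, 0.941). The 4 were picked by correlation over these same libraries, so a high value between leaves of 1 group is partly built in and is no separate evidence. After taking out group means the correlation was 0.945 for TypA/BipA, 0.915 for the dioxygenase, 0.905 for the kinase and 0.858 for the reductase.

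The 10 genes most like CN01_06G004190 had correlations of 0.922 to 0.952, and none of them was among the 10 of MT3 (0 shared). The study's list names 2 of them, a putative transcription factor UNE10, of the bHLH family in Arabidopsis (CN01_scaffold020783G000020, 0.925), and a conserved hypothetical protein (CN01_08G002430, 0.922).

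The 2 type 2 metallothionein genes of the list did not follow MT3. CN01_04G015340, on chromosome 4 at 64861423-64861672, had a correlation of -0.60 with MT3, and CN01_16G007930, on chromosome 16 at 36134755-36135874, one of -0.68. Both have metallothionein 2A as best rice match. At 0 h in Hainan tall the mean levels per length were 1132 FPKM for MT3, 417 for CN01_06G004190, 1188 for CN01_04G015340 and 1134 for CN01_16G007930.

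CN01_04G015340 in Aromatic dwarf was at 1493, 1027 and 722 FPKM in leaves 1, 2 and 3 at 0 h and at 2538, 2875 and 1371 FPKM at 4 h. It was at 671, 677 and 898 FPKM at 6 days and at 541 and 607 FPKM in leaves 1 and 2 at 10 days. Its libraries of 4 h lay above those of 6 days, the reverse of MT3. It fell by 1.28 from 4 h to 6 days (SE 0.31, adjusted p = 0.00381), where 36.1% of all genes were called. In Hainan tall it ran from 1176 to 1475 FPKM at 4 h and from 495 to 1298 FPKM at 6 days, with overlap. Neither type 2 gene was called in that step, where 25.4% of all genes were. CN01_16G007930 in Hainan tall was at 1599, 832 and 970 FPKM at 0 h and at 567, 565 and 214 FPKM at 6 days, with no overlap. It fell by 1.07 (SE 0.33, adjusted p = 0.0275), where 21.1% of all genes were called. Its level at 10 days was 630 and 732 FPKM, a change of -0.19 from 0 h that was not called (adjusted p = 0.818). In Aromatic dwarf at 6 days against 0 h neither type 2 gene was called, where 7.97% of all genes were.

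**Figure D4:**
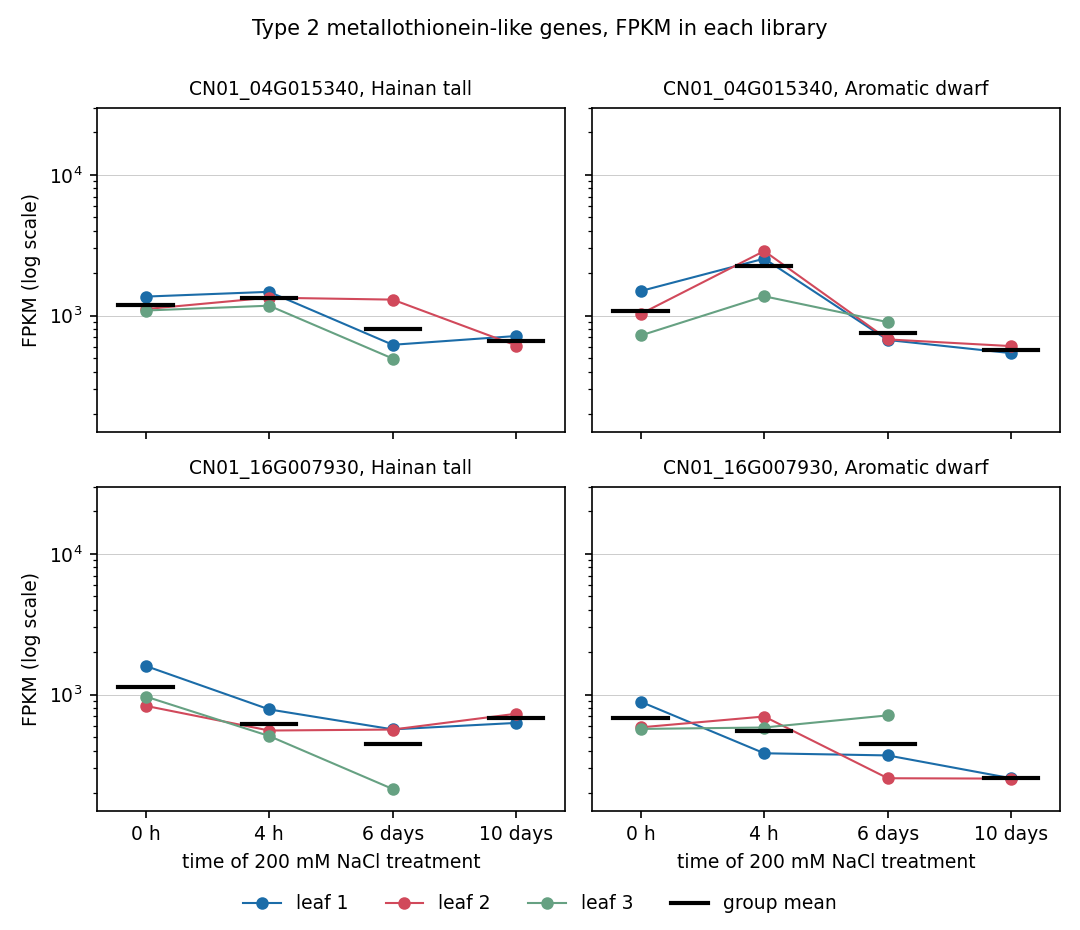
FPKM (log scale) of the 2 type 2 metallothionein-like genes by time, drawn on the axes used for MT3 and CN01_06G004190, with points as libraries, thin lines joining 1 leaf and black bars as group means. CN01_04G015340 peaks at 4 h in Aromatic dwarf and is at 541 and 607 FPKM at 10 days, and no library of either gene exceeds 2875 FPKM.

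Other genes that carry or move metals were read from the same list of the study, which had selected them for a change or a high level in Hainan tall, so a share of changed genes is built into this list. In Hainan tall at 6 days against 0 h, 7 of 11 were called, 6 higher and 1 lower, where 21.1% of all genes were called, with a median log2 change of 0.80 against -0.022 over all genes. The chloroplast Cu-Zn superoxide dismutase (CN01_08G010630), which removes superoxide, rose by 1.10 (adjusted p = 0.000504), and plastocyanin (CN01_09G004780), a copper protein of photosynthetic electron transport, by 0.89 (adjusted p = 0.000955). A heavy metal-associated isoprenylated plant protein 39 (CN01_07G008060) rose by 1.67 (adjusted p = 0.00393).

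From 4 h to 6 days in Aromatic dwarf, 8 of these 11 were called, 7 higher and 1 lower, where 36.1% of all genes were called, with a median of 0.71 against -0.02 over all genes. Plastocyanin rose by 1.97 (adjusted p = 2.12e-07) and a ferric reduction oxidase 6 (CN01_scaffold009298G000030), a family that reduces iron in Arabidopsis, by 3.41 (adjusted p = 0.000103). The member that fell was a conserved hypothetical protein of a heavy metal transport superfamily in rice (CN01_scaffold007449G000030), by 3.72 (adjusted p = 0.0034). A zinc induced facilitator-like 1 gene (CN01_04G006030), a membrane transporter family in Arabidopsis, had the highest correlation with MT3 of the 11, at 0.866. Another gene of the same annotation was at 0.659. The values of the 11 ran down to -0.881, for CN01_scaffold007449G000030.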

How the data were processed

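Leaf RNA of 22 libraries was grouped by the variety and time in the labels. The authors ran RSEM on reads that Bowtie had placed on the gene reference, which gave the deposited expected counts, and the FPKM values were deposited beside them. BWA was used for the scaffolds, and versions are not given in the sources used here. Gene lengths in the tables are coding lengths for these genes. Tables leave out genes without a count, which were taken as 0.

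Expected counts were rounded, genes were filtered with filterByExpr, libraries were scaled by TMM, and edgeR 4.0.16 (R 4.3.3) was fitted to 8 groups and the flow cell (13 residual degrees of freedom). Standard errors were derived from the log2 change and its F statistic. Correlations use log2(TMM CPM + 1). FPKM folds within a leaf carry no TMM scaling. The TMM factors moved with time, 1.07 to 1.14 at 0 h and 4 h and 0.832 to 0.952 at 6 and 10 days. The test was tested on simulated data. The members and gene lists were chosen with earlier results of these data known. The 2 members, the type 2 genes, the 10 most alike genes per member and up to 4 genes of a list with the smallest adjusted p were named, and CN01_04G006030 and CN01_scaffold007449G000030 in addition, chosen after their values were seen.

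The methods state that samples of 1 number are from the same leaf, which pairs them. Deviations from group means of such samples had a mean correlation of 0.234 in Hainan tall (12 of 15 pairs above 0.1) and 0.0994 in Aromatic dwarf (8 of 15). Alternatives were a leaf block (fixed or random), DESeq2 1.42.0, limma 3.58.1, other scalings and filters, no flow cell, fewer libraries, each library left out and, chosen after seeing the data, the sum of both members.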

Additional observations from a re-analysis of the deposited data

How the results depend on the processing

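Of 358 values recomputed under settings other than leaving out a library, 327 kept their direction and their side of the threshold, 10 lost a call, 17 gained one and 4 changed sign. The sign changes were all of CN01_06G004190 in Hainan tall at 4 h, main value 0.021, which was -0.024 without the flow cell term, -0.0013 with DESeq2 size factors, -0.0068 with total-count scaling and -0.0051 with a minimum of 50 counts throughout 1 group. CN01_06G004190 lost its call in Hainan tall at 6 days against 0 h without the flow cell (1.27), with total counts (0.97) and with limma on log2(FPKM + 1) and log2(FPKM + 0.1) (0.96 and 0.96). Against 4 h it was lost with total counts (0.98) and with limma (0.91 and 0.91), in Aromatic dwarf with limma (1.08 and 1.08), and at 10 days with only that variety fitted (2.59). Calls gained at 10 days were, without the flow cell, 2.41 for MT3 and 1.75 for CN01_06G004190 in Hainan tall and 2.14 for MT3 in Aromatic dwarf, with only Hainan tall libraries 1.62 and 1.40, and with DESeq2 1.57 for CN01_06G004190. The leaf as a fixed replicate block added MT3 in Hainan tall at 10 days (2.96). MT3 in Hainan tall from 4 h to 6 days was called with DESeq2 size factors (1.85), no filter (1.82), the 50-count filter (1.78), DESeq2 (1.85), the fixed (1.78) and random (1.76) replicate block and only that variety (1.80). The sum of both members, counted with MT3 above, was called there too (1.72). The block changed no other call. The varieties at 10 days passed only with 4 libraries fitted (-1.11 and -1.32). By the group means of its factors, TMM adds 0.25 to 0.32 to a change at 6 or 10 days over total-count scaling. The cause of these shifts was not tested.

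Leaving out 1 library gave 266 values, of which 229 were unchanged in direction and call, 19 lost a call, 5 gained one and 13 changed sign. For MT3 the ranges against 0 h were, at the 3 later times in turn, 0.09 to 1.04, 1.70 to 2.87 and 1.86 to 2.87 in Hainan tall, and -1.61 to -0.74, -0.44 to 2.26 and 1.30 to 2.18 in Aromatic dwarf. From 4 h to 6 days they were 1.26 to 2.21 and 1.24 to 3.62. For CN01_06G004190 they were -0.25 to 0.34, 1.03 to 1.63 and 1.36 to 2.0, then -0.85 to 0.10, 0.23 to 1.66 and 1.81 to 2.83, and 1.01 to 1.57 and 1.02 to 1.99. Tall minus dwarf ran for MT3 from -2.13 to -1.11, -0.31 to 0.36, -1.64 to 0.78 and -1.21 to -1.05 at the 4 times and -1.10 to -0.52 on average. For CN01_06G004190 it ran from -1.01 to -0.07, -0.32 to -0.03, -0.79 to 0.24 and -1.61 to -0.99, and -0.75 to -0.49. The differences of the changes were 1.22 to 2.18, -0.080 to 2.75 and -0.014 to 1.0 for MT3 and -0.079 to 0.87, -0.37 to 1.09 and -1.27 to -0.25 for CN01_06G004190. The log2 ratio of the pair differed by -0.56 to -0.21, by -0.39 from expected counts and by -0.24 with 10 days included. Calls over all genes also moved. Without the flow cell 3514 genes were called in Aromatic dwarf at 10 days, against 1507, 2773 against 1502 at 6 days, and 2657 against 1522 in Hainan tall at 10 days. With only 1 variety fitted, 618 against 2457, 484 against 1502 and 436 against 1507 genes were called in Aromatic dwarf, in order of time.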

Other observations

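Glutathione, like the metallothioneins, is built with cysteine. The genes below were read from the same list of the study. It had selected them for a change or a high level in Hainan tall, so a share of changed genes is built in. Of the genes of glutathione and sulfur metabolism, 2 of 10 were called in Hainan tall at 6 days against 0 h, a share close to the 21.1% of all genes called there, with a median log2 change of 0.36. Phospholipid hydroperoxide glutathione peroxidase 1 (CN01_01G004690), an enzyme against lipid peroxidation, rose by 1.51 (SE 0.16, adjusted p = 6.58e-05 by edgeR) and microsomal glutathione S-transferase 3 (CN01_02G005040) fell by 1.15 (SE 0.29, adjusted p = 0.0103). From 4 h to 6 days in Aromatic dwarf, 3 of 10 were called, where 36.1% of all genes were, all 3 higher, with a median of 0.46. Among them 5'-adenylylsulfate reductase 1 (CN01_06G011940), a step of sulfate assimilation toward cysteine, rose by 3.21 (SE 0.84, adjusted p = 0.00651) and gamma-glutamylcyclotransferase 2-1 (CN01_11G013650), which breaks down glutathione, by 1.46 (SE 0.36, adjusted p = 0.00417).

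Also on the study's list were 3 cysteine proteinases and 1 gene named after a senescence-associated gene of rice. Calls in Hainan tall are thus partly built in for them too. Of these, 4 of 4 were called in Hainan tall at 4 h, when neither MT3 nor CN01_06G004190 was and 20.6% of all genes were. There 3 were higher and 1 lower, with a median of 0.95. The low-temperature-induced cysteine proteinase (CN01_03G013720) rose by 1.20 (SE 0.26, adjusted p = 0.00402), and the Lea5-like gene (CN01_scaffold014710G000030) fell by 0.79 (SE 0.23, adjusted p = 0.0194). In Aromatic dwarf at 4 h 1 of the 4 was called, where 13% of all genes were. At 10 days 0 of 4 were called in either variety, where 8.08% of all genes were called in Hainan tall and 8% in Aromatic dwarf. Of the leaf markers, 3 of 5 were called higher in Hainan tall at 6 days against 0 h, with a median of 1.09 and 21.1% of all genes called, and 5 of 5 in Aromatic dwarf from 4 h to 6 days, with a median of 1.97 and 36.1% of all genes called.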
